A study of Mus musculus with 14 samples.

Results

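Lgr receptors and R-spondins form a receptor and ligand family of 7 mouse genes, namely the receptors Lgr4, Lgr5 and Lgr6 and the secreted ligands Rspo1, Rspo2, Rspo3 and Rspo4. Their probes were taken by the gene name in the scanner files, with older synonyms allowed, which gave 15 probes of the 41174 on the array. All 7 genes were among the 23647 that could be tested, and 11 of the probes passed the filter on dim spots. The set was chosen by the log2 ratio of Lgr5, which is lower in the P4 population of pregnant than of virgin mice. Values of that contrast, and those of Lgr5 in P4, are therefore a description and carry no test.

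The data are 14 2-colour expression arrays of sorted mammary cells from FVB mice. Wild-type FVB/N-J mice, pregnant or virgin, gave 3 populations sorted by CD24 and CD29 on the cell surface, with 2 arrays each: P4, labelled as enriched for mammary stem cells, P5, labelled as enriched for luminal progenitors, and P6, a CD24lo population labelled as differentiated mammary epithelial cells. In virgin mice of the luciferase transgenic line L2G85, lineage-negative cells were split into a stem-cell-enriched GFPhi and a depleted GFPlo fraction, with 1 array each. Every array compared the cells (Cy5) with 1 commercial RNA mix of 11 mouse cell lines (Cy3), and each value below is the log2 ratio of both. The titles give P4 and P5 the same CD24 and CD29 gate, so these populations are told apart only by their names. The labels state neither the stage of pregnancy nor the age of the mice, the promoter of the transgene, or whether animals were pooled.

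R-spondins are secreted proteins that bind Lgr receptors on the cell surface. The bound pair captures the membrane ligases Znrf3 and Rnf43, which otherwise remove Frizzled receptors, so that the cell keeps more Frizzled and responds more strongly to Wnt ligands. Lgr5 is itself raised by Wnt signalling in many tissues and is best known as a marker of intestinal stem cells. In the mouse mammary gland Lgr5 has been described in a subset of basal cells, and R-spondin 1 as a secreted factor that supports mammary stem cells together with Wnt4.

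The probes that carry the results are shown because several genes have probes that disagree, and each probe reads a different stretch of the gene. All are 60 bases long, and coordinates are those of the scanner files on the mouse build mm7. Sequences are written in lower case, 5′ to 3′ as the scanner files give them, the first pair in full and the others as their first 30 bases. No annotation of that build was used here, so exons and untranslated regions were not assigned.
Lgr4 A_52_P278566 (XM_355385, chr2:109840540-109841926, + strand): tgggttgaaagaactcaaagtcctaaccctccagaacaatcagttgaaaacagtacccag
Lgr6 A_52_P616580 (NM_001033409, chr1:134876990-134877049, - strand): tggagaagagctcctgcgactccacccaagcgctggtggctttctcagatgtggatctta
Lgr4 A_51_P442746 (AK033699, chr2:109863462-109863521, + strand): agtcagaagtctgtgaagaatgggagccta
Lgr4 A_52_P276727 (AK033699, chr2:109864637-109864696, + strand): gcatatgatgaagtttatcttgtgtaaatt
Lgr5 A_51_P218091 (NM_010195, chr10:114958025-114958084, - strand): aaacaccgcttgtatcatttgttcagctaa
Lgr6 A_52_P75777 (AK040883, chr1:134873746-134873805, - strand): gtctctgttctacatatttggatctgacaa
Rspo1 A_51_P142421 (NM_138683, chr4:124453673-124453732, + strand): ccgtggtacacgtcacggatgacctgactt
The Lgr4 probe for XM_355385 covers 1387 bases of the genome with 60 bases and so bridges a splice junction, while both AK033699 probes lie unbroken further along the gene. The Lgr6 probe for NM_001033409 has no stop codon in any of its 3 frames.

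There were 5 slides and 3 scans. The arrays of replicate 1 of all 3 pregnant populations made up scan 3, which lacked the scanner's extended range and had 102 to 183 saturated Cy5 probes per array, against 0 to 10 on the others. No spot of the family was saturated. Replicate 2 of every pregnant and every virgin population shared scan 2, so a pregnancy difference within that scan exists for each gene. Each such difference sets 1 array against 1. In P4 both of these arrays lay on slide 2. In P5 and P6 the pregnant array lay on slide 4 and the virgin array on slide 2. No pregnant array of P5 or P6 shared a slide with a virgin one, so pregnancy and slide cannot be told apart within them. With slide as a block, only pregnant P4 replicate 2 links both conditions. The labels were checked against marker lists. The median of 8 basal genes ran from 4.09 to 6.10 in P4, against 1.04 to 2.41 in P5. The median of 6 endothelial genes ran from 2.89 to 4.55 in P4, against 0.89 to 1.69 in P5. In P6 the endothelial median was 1.48 to 2.73 in pregnant and 3.19 to 3.23 in virgin mice. The label of P4 does not name an endothelial signal. Virgin P5 had the highest luminal medians, 4.11 and 4.27. P6 had fibroblast medians of 3.78 to 5.97, against -2.53 to -1.32 in P4 and P5, a signal that its epithelial label does not name. In P6 the basal median was 1.01 to 1.58 in pregnant and 1.16 to 1.75 in virgin mice, and the luminal median -1.22 to -0.89 in pregnant and 0.40 to 0.44 in virgin mice. In sorted bulk RNA, fewer cells of a type and less RNA per cell cannot be told apart.

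Lgr5 was above 4 in 3 of the 14 arrays. On the probe for NM_010195 it read 0.41 and 0.73 in pregnant P4, against 4.45 and 4.33 in virgin P4. The mean Cy5 spot intensity was 112 and 118 in pregnant P4, against 1434 and 1920 in virgin P4, over a local background near 33. The groups did not overlap, a separation not counted over all genes, and the difference of -3.83 (SE 0.16) is 14.2-fold. It was -3.61 within scan 2. Since the gene was chosen for this difference, the value is a description, and 4.64% of all genes were at least 2-fold lower in the same contrast.

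The other populations held little Lgr5 signal. Lgr5 read 0.09 and -0.06 in pregnant P5, against 0.41 and 0.68 in virgin P5. It read 0.28 and 0.13 in pregnant P6, against 1.09 and 1.04 in virgin P6. Pregnant values lay below virgin ones in both populations, without overlap, and how many of all genes separate in this way was not counted. Neither array of pregnant P5 and only 1 of pregnant P6 was well above background.

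In P5, Lgr5 fell in pregnancy, with means of 0.02 and 0.54 in pregnant and virgin mice and an adjusted p = 0.0484 (limma). Pregnant P5 was not well above background on either array, so the size of this difference is not settled and no fold is given. The fit over all probes put it just outside the threshold (adjusted p = 0.0514), and 10 of 15 alternatives lost the call, among them each fit without 1 P5 array (-0.39 to -0.66, adjusted p from 0.0772 to 0.245) and slide as a block (-0.15). The P5 difference was -0.74 within scan 2. In P6 the difference was -0.86 (SE 0.16, adjusted p = 0.108), and -0.92 within scan 2. With the replicate number as a block, the P6 difference passed (adjusted p = 0.032), but such a block takes the shift between scans out of the error.

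Ordered by group mean, Lgr5 ran from virgin P4 (4.39 ± 0.09, SD, n = 2) over GFPhi, GFPlo, virgin P6 (1.06 ± 0.03), pregnant P4 (0.57 ± 0.23), virgin P5 (0.54 ± 0.19) and pregnant P6 (0.20 ± 0.11) to pregnant P5 (0.02 ± 0.11). The neighbours pregnant P4 and virgin P5 overlapped, and GFPhi, at 4.33, was level with the lower virgin P4 array. Lgr5 in P4 exceeded that in P5 by 3.85 in virgin mice, and that in P6 by 3.33, again without a test. In pregnant mice the size of the P4 excess was not settled, since Lgr5 was well above background on neither P5 array and on 1 P6 array. It was 0.55 over P5 and 0.36 over P6 here, and 2.5 and 1.52 by the scanner's own log ratio. In virgin mice, P5 minus P6 was -0.52 (SE 0.16, adjusted p = 0.0628), and the replicate block took it past the threshold (adjusted p = 0.0458). The second Lgr5 probe, for AK047873, was not well above background on any array.

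**Figure D1:**
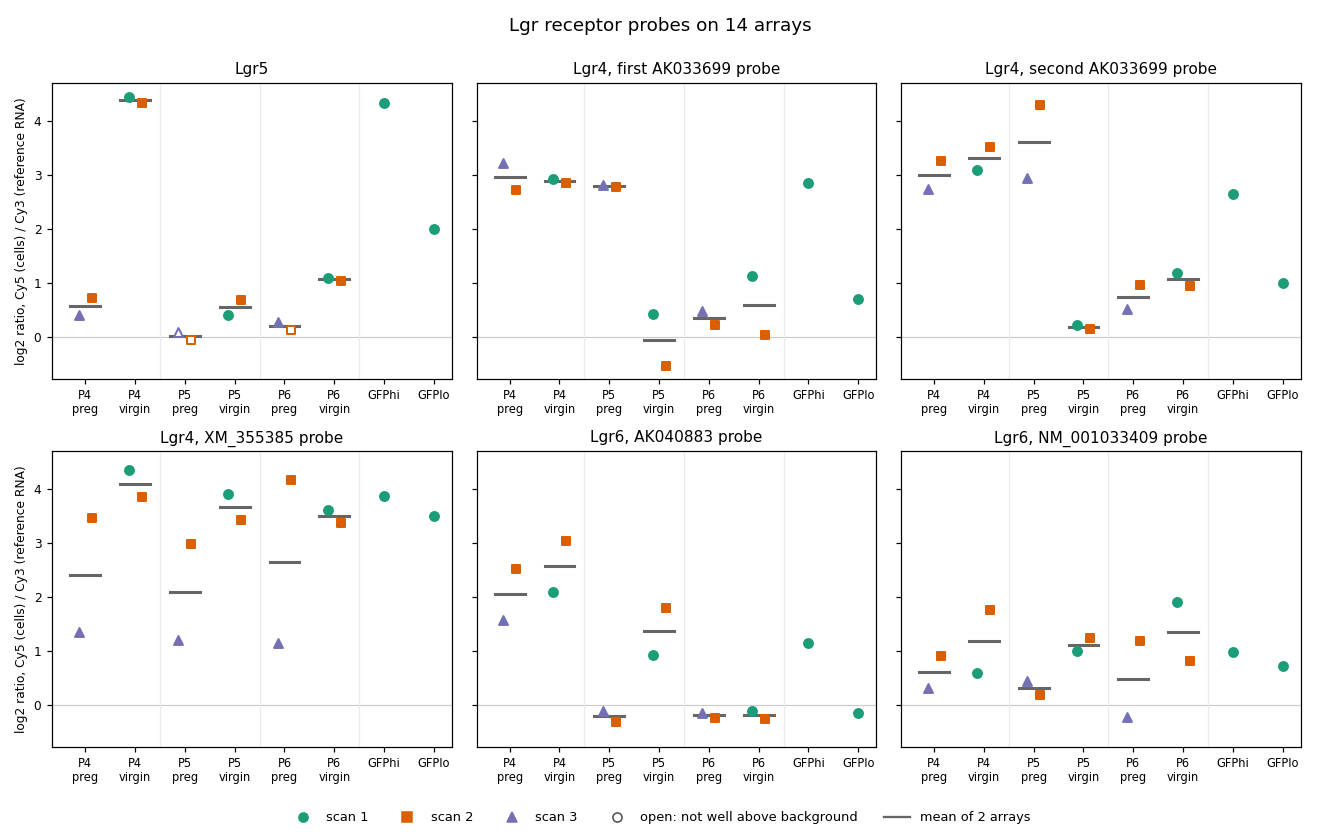
Log2 ratio of cells over reference RNA for the 6 kept Lgr probes on each of the 14 arrays, by population and condition, with marker shape for the scan, open markers for spots not well above background and a bar for the mean of 2 arrays. Lgr5 is above 4 in virgin P4 and GFPhi and between 0.41 and 0.73 in pregnant P4, both AK033699 probes of Lgr4 are high in P4 and in pregnant P5, and the XM_355385 probe of Lgr4 is lowest on the 3 arrays of scan 3.

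Basal markers were measured in the same P4 arrays. Their median was 4.09 and 6.10 in pregnant P4, against 5.13 and 5.63 in virgin P4, and the median difference of the 8 genes was -0.74, against -0.03 over all genes. In pregnant mice 4 of the 8 were higher in P4 than in P5, beside 11.7% of all genes, with a median difference of 2.93. In virgin mice 8 of 8 were higher, beside 6.58% of all genes, with a median difference of 5.23. The basal transcription factor Trp63 read 5.56 and 6.22 in pregnant P4, against 6.31 and 6.82 in virgin P4, and the basal keratin Krt14 read 2.72 and 4.51, against 4.66 and 4.17. All 8 basal genes were well above background on each of these arrays, and on each P5 array too, so this flag does not set P4 apart. The adipocyte median was 4.54 in pregnant P4 replicate 1 and 1.06 in replicate 2, against 0.51 to 0.61 in virgin P4, and the milk protein median was 4.49 to 6.88, against 2.26 to 3.22. The part of these markers in the Lgr5 difference was not tested.

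Some genes followed Lgr5 across the 14 arrays. Among 17927 genes, those with the highest Pearson correlations included 6330403K07Rik (r = 0.972), Pappa, a protease that frees insulin-like growth factors (r = 0.964), Speer4f1 (r = 0.959) and Kcna1, a voltage-gated potassium channel (r = 0.952). Pappa read 0.02 and -0.30 in pregnant P4, against 3.5 in both virgin P4 arrays. These correlations are a description: the arrays share the reference RNA, and the 3 arrays with high Lgr5 set most of each value.

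**Figure D2:**
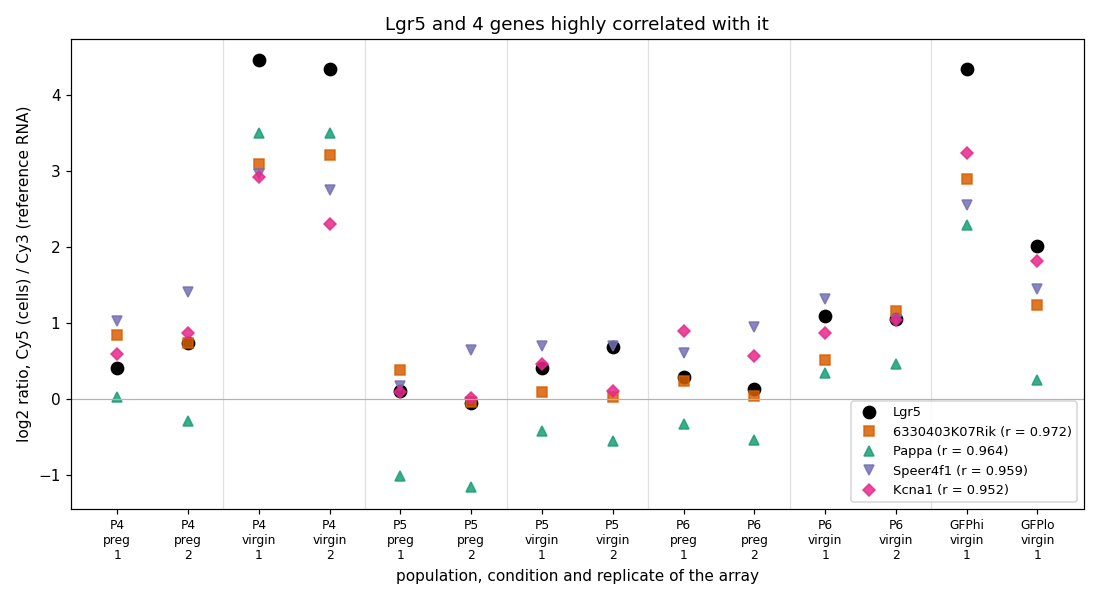
Log2 ratio of Lgr5 and of 4 genes among those with the highest Pearson correlation to it, on each of the 14 arrays in order of population and condition. Lgr5 and these 4 genes are highest in both virgin P4 arrays and GFPhi.

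Lgr4, a widely expressed R-spondin receptor, gave pictures that differed between its probes. Both AK033699 probes showed a high level in P4 and in pregnant P5. The first, A_52_P276727, read 3.23 and 2.72 in pregnant P4 against 2.92 and 2.86 in virgin P4. It read 2.82 and 2.78 in pregnant P5, against 0.43 and -0.54 in virgin P5, and 0.48 and 0.22 in pregnant P6, against 1.12 and 0.04 in virgin P6. P4 hardly differed with pregnancy, pregnant P5 reached the level of P4, and P6 stayed low.

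The second of them, A_51_P442746, was also high in P4 and in pregnant P5 and low in virgin P5 and in P6. It read 2.94 and 4.30 in pregnant P5, against 0.22 and 0.13 in virgin P5. Its values were 2.73 and 3.27 in pregnant P4 and 3.1 and 3.52 in virgin P4. Over 14 arrays these probes correlated at r = 0.925.

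The rise of Lgr4 in P5 in pregnancy was 2.86 (7.25-fold, SE 0.39, adjusted p = 0.00173) on the first AK033699 probe and 3.44 (10.9-fold, SE 0.40, adjusted p = 0.00079) on the second, in the limma fit over all 34805 kept probes. Within scan 2 the differences were 3.32 and 4.17. Median centring in place of loess left the first probe at 2.36 (adjusted p = 0.0628) and likewise ended its calls between populations, apart from pregnant P4 against P6. In P6 the same probes differed by -0.23 and -0.32 between pregnant and virgin mice (adjusted p = 0.966 and 0.945). The pregnancy effect in P6 minus that in P5 was -3.09 (adjusted p = 0.0154) and -3.77 (adjusted p = 0.00789), so it differed between P6 and P5. In P4, where no test is given, the differences were 0.09 and -0.31.

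Markers moved with pregnancy in P5 too. The luminal median was 1.64 to 2.15 in pregnant P5, against 4.11 to 4.27 in virgin P5, and the milk protein median was 5.48 to 8.22, against 4.53 to 4.99. The fast muscle median was -0.03 to 1.12, against 3.15 to 3.64, and the adipocyte median 0.40 to 2.83, against 0.09 to 0.20. The basal median was 2.21 to 2.41 in pregnant P5, against 1.04 to 1.47 in virgin P5. None of the 8 basal genes passed the test for pregnancy in P5, beside 21.5% of all genes. The median difference of the 8 was 1.18, against 0.04 over all genes. The part of these lists in the Lgr4 rise was not tested.

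Between populations, the AK033699 probes put Lgr4 higher in P4 than in P5 of virgin mice, by 2.94 (SE 0.39, adjusted p = 0.00204) and 3.13 (SE 0.40, adjusted p = 0.00171). In pregnant mice P4 minus P5 was 0.17 and -0.62, neither past the threshold (adjusted p = 0.828 and 0.346). P4 exceeded P6 by 2.31 and 2.24 in virgin mice (adjusted p = 0.00699 and 0.00923) and by 2.63 and 2.26 in pregnant mice (adjusted p = 0.00312 and 0.00768). P5 exceeded P6 by 2.45 and 2.88 in pregnant mice (adjusted p = 0.00226 and 0.00112). In virgin mice P5 minus P6 was -0.64 and -0.89 (adjusted p = 0.432 and 0.232), and the replicate block took the second probe past the threshold (adjusted p = 0.0297). For P4 against P6, some fits without 1 array lost the call. In virgin mice the first probe gave 2.27 and 2.34 without P4 replicate 1 or 2 (adjusted p = 0.0537 and 0.0514), and the second 2.03 and 2.13 without P4 replicate 2 or P6 replicate 2 (adjusted p = 0.0839 and 0.0626). In pregnant mice the second gave 1.99 and 2.03 without P4 replicate 2 or P6 replicate 1 (adjusted p = 0.0538 and 0.0543), and the first 2.5 without scan 3 (adjusted p = 0.0979).

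The third kept Lgr4 probe, for XM_355385, is the brightest and so stood for the gene in the fit over genes. It read 1.36 and 3.47 in pregnant P4, 1.21 and 2.98 in pregnant P5 and 1.14 and 4.17 in pregnant P6. The virgin values lay between 3.37 and 4.36 in all 3 populations. The low value of each pregnant pair was the array of scan 3. The largest difference between populations on this probe was 0.61, and its pregnancy difference in P5 was -1.58 (SE 1.02, adjusted p = 0.332). That difference has the opposite sign of the other probes, and it passed with the replicate block (adjusted p = 0.00275) but not with scan as a block. Within scan 2 it was -0.45. The probe correlated with the AK033699 probes at r = -0.17 and -0.06, and with the gene most like it, Eml6, at r = 0.990. Eml6 was likewise lowest on scan 3, at 1.22, 1.29 and 1.45. The fourth Lgr4 probe, for AK052660, was above background on 2 arrays and was left out.

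Lgr6, which marks stem cells of the hair follicle in mice, followed P4 on 1 of its 2 probes. The AK040883 probe read 1.57 and 2.53 in pregnant P4, against 2.10 and 3.05 in virgin P4. It read -0.11 and -0.32 in pregnant P5, against 0.93 and 1.80 in virgin P5. All 4 arrays of P6 lay between -0.27 and -0.12. Pregnant and virgin P4 overlapped, while P5 did not, a separation not counted over all genes.

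On this probe Lgr6 was higher in P4 than in P6, by 2.77 in virgin mice (6.82-fold, SE 0.41, adjusted p = 0.00329) and by 2.24 in pregnant mice (4.74-fold, adjusted p = 0.00843). The call in pregnant mice was lost in 3 of 16 alternatives, among them without pregnant P4 replicate 2 (1.76) or scan 3 (2.77). Lgr6 was higher in P4 than in P5 by 2.26 in pregnant mice (adjusted p = 0.00551). In virgin mice that difference was 1.21 (adjusted p = 0.12), which passed with the replicate block (adjusted p = 0.0384), and it was 1.17 and 1.25 on the arrays of scans 1 and 2. P5 exceeded P6 by 1.56 in virgin mice (adjusted p = 0.0358). Lgr6 fell in P5 in pregnancy by 1.58 on the log2 scale (adjusted p = 0.0287), and by 2.12 within scan 2. That call and the virgin P5 against P6 call were each lost in 6 of 16 alternatives. The pregnancy call was lost without virgin P5 replicate 2 (-1.15), pregnant P5 replicate 1 (-1.69) or pregnant P5 replicate 2 (-1.47), and the virgin call without P5 replicate 2 (1.13), P6 replicate 1 (1.64) or P6 replicate 2 (1.48). Slide as a block put the pregnancy difference at -0.82 (adjusted p = 0.332). In P6 the pregnancy difference was -0.00 (adjusted p = 1.00). The P4 difference, with no test, was -0.53.

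The NM_001033409 probe of Lgr6 is brighter and stood for the gene in the fit over genes. It ran from -0.23 to 1.18 in pregnant mice, against 0.59 to 1.91 in virgin mice. None of its differences passed, and the largest was -0.88 for pregnancy in P6 (adjusted p = 0.845). Both Lgr6 probes correlated at r = 0.317 over the arrays. The gene most like the AK040883 probe was Col9a3, a cartilage collagen chain (r = 0.965), which read 2.52 and 2.41 in pregnant P4, against 3.17 and 3.75 in virgin P4.

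Rspo1 was the ligand with the widest range. Its probe read 3.0 and 4.04 in pregnant P4, against 1.95 and 1.88 in virgin P4. It read 1.10 and 1.53 in pregnant P5, against 2.64 and 1.80 in virgin P5, and 3.13 and 3.22 in pregnant P6, against 4.68 and 5.03 in virgin P6. Pregnant values lay above virgin ones in P4 and below them in P5 and P6, with no overlap in any of the 3 populations. How many of all genes separate in this way was not counted.

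In virgin mice Rspo1 was lower in P4 than in P6, by -2.94 (7.67-fold, SE 0.37, adjusted p = 0.00127), and lower in P5 than in P6, by -2.64 (6.22-fold, adjusted p = 0.00133). Virgin P4 and P5 did not differ detectably (-0.30, adjusted p = 0.81). In pregnant mice Rspo1 was higher in P4 than in P5, by 2.20 (4.61-fold, adjusted p = 0.0034), and P5 stayed below P6 (-1.86, adjusted p = 0.00605). Pregnant P4 and P6 were 0.34 apart (adjusted p = 0.76). Within single scans these 4 called differences kept their direction, for instance -2.73 and -3.15 for virgin P4 minus P6 and 1.90 and 2.51 for pregnant P4 minus P5. With the backgrounds as given, none of the 4 calls was made, and virgin P4 minus P6 was -1.04 (adjusted p = 0.586).

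Pregnancy differences of Rspo1 were 1.6 in P4 (SE 0.37), with no test, -0.90 in P5 (adjusted p = 0.124) and -1.68 in P6 (adjusted p = 0.166). Within scan 2 they were 2.16, -0.27 and -1.81. The scanner's own log ratio put the P4 difference at 1.06. With the replicate block the P5 and P6 differences passed (adjusted p = 0.0465 and 0.0292), and that block takes the shift between scans out of the error. With slide as a block the P5 difference turned to 0.10 (adjusted p = 0.925), and with the backgrounds as given the P6 difference turned to 0.23 (adjusted p = 0.988). In the same P4 arrays the fibroblast median was -1.66 and -1.49 in pregnant mice, against -1.50 and -1.32 in virgin mice, and the pericyte median was 2.19 to 2.77, against 2.23 to 2.39. The adipocyte and milk protein medians, given above, were higher in pregnant P4. The part of these 4 lists in the Rspo1 difference was not tested.

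Virgin Rspo1 was highest in P6. All 7 fibroblast genes and all 4 pericyte genes were well above background on every array, so this flag does not set P6 apart. The fibroblast collagen Col1a1 read 3.5 and 5.97 in pregnant P6, against 4.06 and 4.69 in virgin P6, and the fibroblast receptor Pdgfra 3.43 and 2.72, against 2.97 and 2.12. Both had the higher mean in pregnant P6, unlike their list as a whole. The median pregnancy difference of the 7 fibroblast genes in P6 was -0.74, against -0.01 over all genes. None of the 7 passed, beside 0.186% of all genes. In P4 and P5 Pdgfra was at -2.83 or below. The part of fibroblast transcripts in the Rspo1 level of P6 was not tested. The gene most like Rspo1 over the arrays was Fbxw17 (r = 0.90).

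**Figure D3:**
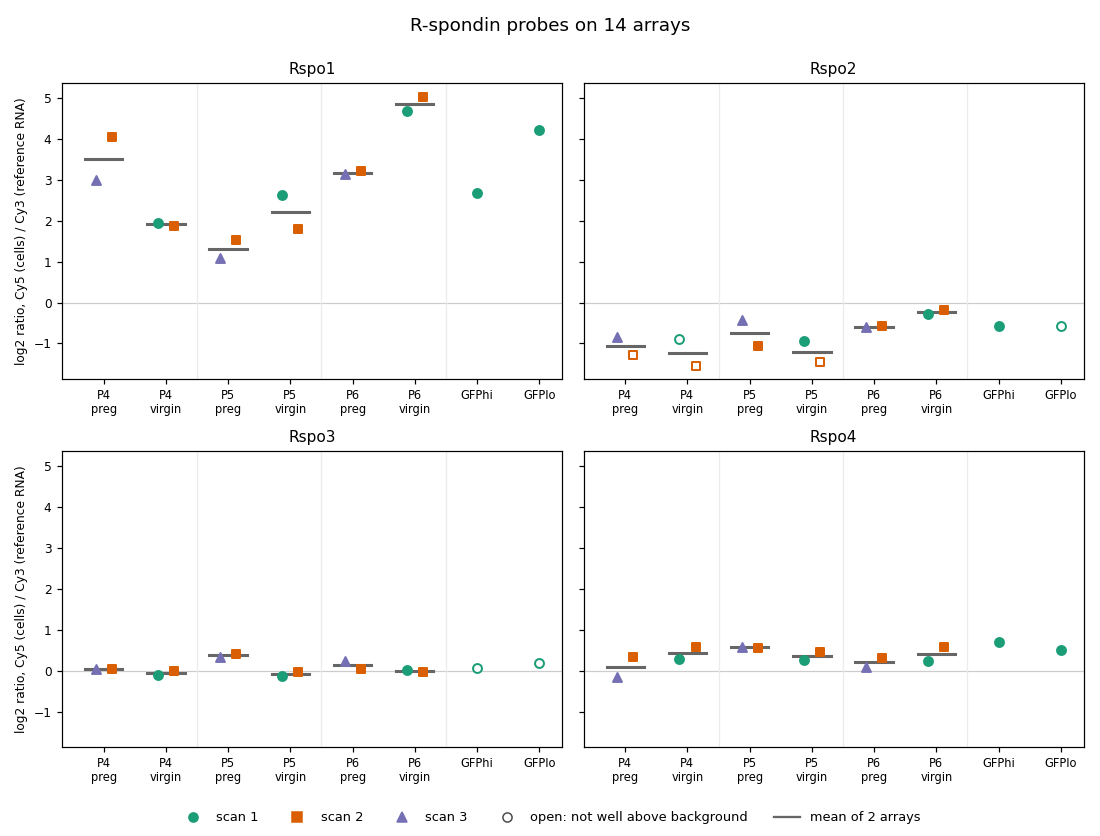
Log2 ratio of cells over reference RNA for the probe that stood for each R-spondin gene, on each of the 14 arrays, drawn as in the plot of the Lgr probes. Rspo1 spans 1.10 to 5.03, while Rspo3 and Rspo4 stay between -0.15 and 0.69.

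**Figure D4:**
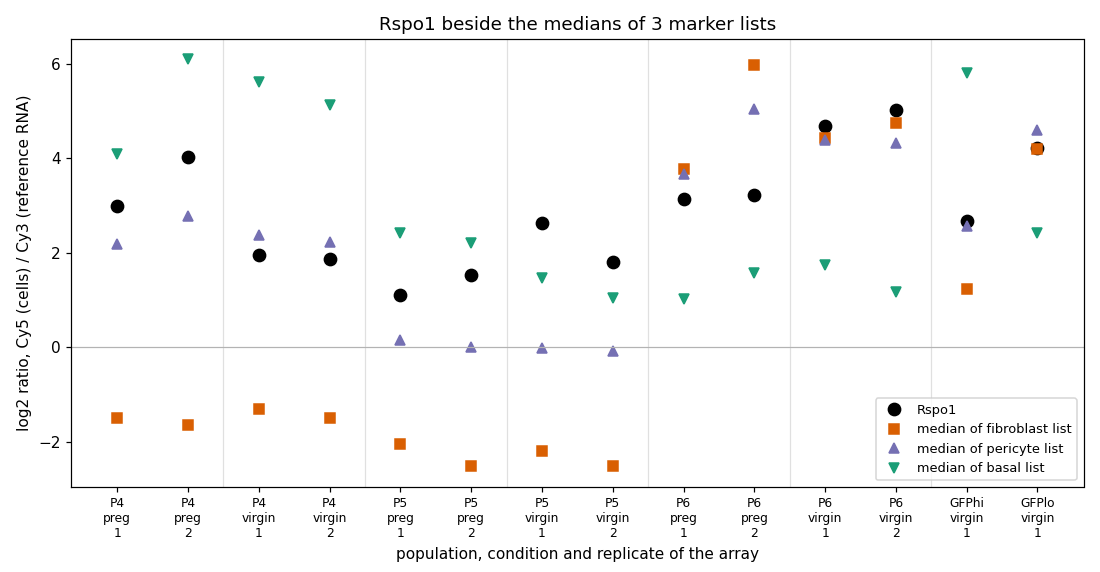
Log2 ratio of Rspo1 and the medians of the fibroblast (7 genes), pericyte (4 genes) and basal (8 genes) marker lists on each of the 14 arrays. Rspo1 and both stromal medians are high in P6 and GFPlo. Pregnant P4 has higher Rspo1 than virgin P4. Over these P4 arrays the fibroblast medians run from -1.66 to -1.32 and the pericyte medians from 2.19 to 2.77. The part of these lists in the Rspo1 level was not tested.

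The other R-spondins had low or flat signals. Rspo2, a ligand gene near mammary tumour virus insertions in mice, read -0.60 and -0.58 in pregnant P6, against -0.28 and -0.18 in virgin P6. Its values ran from -1.28 to -0.42 in pregnant P4 and P5, and from -1.55 to -0.90 in virgin P4 and P5. The probe was well above background on 9 of 14 arrays and on neither array of virgin P4. Virgin P4 minus P6 was -0.99 (adjusted p = 0.0762) and virgin P5 minus P6 was -0.97 (adjusted p = 0.0628). Both passed with the replicate block (adjusted p = 0.0149 and 0.0125). A second Rspo2 probe was above background on no array.

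Rspo3, known for its part in blood vessel development, stayed between -0.12 and 0.41. It read 0.35 and 0.41 in pregnant P5, against -0.12 and -0.04 in virgin P5, a difference of 0.46 (1.37-fold, SE 0.12, adjusted p = 0.0281). Over the alternatives this difference ran from 0.298 to 0.995, so its size is not settled. The groups did not overlap, a separation not counted over all genes. Within scan 2 the difference was 0.45, but the call was lost in 9 of 16 alternatives, among them each fit without 1 P5 array. Pregnant P4 minus P5 was -0.33 (adjusted p = 0.084) and passed with the replicate block (adjusted p = 0.0463). The second Rspo3 probe was above background on no array.

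Rspo4, known for nail development, ranged from -0.15 to 0.69 on its brighter probe. None of its differences passed. The nearest was pregnant P4 minus P5, at -0.48 (adjusted p = 0.14), which passed with the replicate block (adjusted p = 0.0278). Its other kept probe ran from -0.10 to 0.21, and both probes correlated at r = 0.080.

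Counted by gene and read against all genes, the family's calls were few. In virgin P4 minus P5 the limma fit called 0 of the 6 members open to a test (0 also at an unadjusted p under 0.05), beside 11.4% of all genes. Virgin P4 minus P6 called 1 of 6 (Rspo1), beside 10.4%, and virgin P5 minus P6 called 1 of 7 (Rspo1), beside 16.1%. In pregnant mice P4 minus P5 called 1 of 6 (Rspo1), beside 22.6%, and P5 minus P6 called 1 of 7 (Rspo1), beside 26.9%. Pregnant P4 minus P6 called 0 of 6 (0 also unadjusted), beside 12.1%. So few members are no basis for setting the family apart from the background.

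For pregnancy, P5 called 2 of 7 members (Lgr5 lower and Rspo3 higher), beside 21.5% of all genes. P6 called 0 of 7 (2 at an unadjusted p under 0.05, Lgr5 and Rspo1), beside 0.186%, and the difference of both effects called 0 of 7 (0 unadjusted), beside 7.33%. The fit over all probes, which reads the other Lgr4 and Lgr6 probes too, called 9.69% of probes in virgin P4 minus P5, 8.95% in virgin P4 minus P6 and 14.3% in virgin P5 minus P6. In pregnant mice it called 20.1% for P4 minus P5, 10.5% for P4 minus P6 and 24% for P5 minus P6. It called 19.4% for pregnancy in P5, 0.141% for pregnancy in P6 and 6.19% for their difference.

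**Figure D5:**
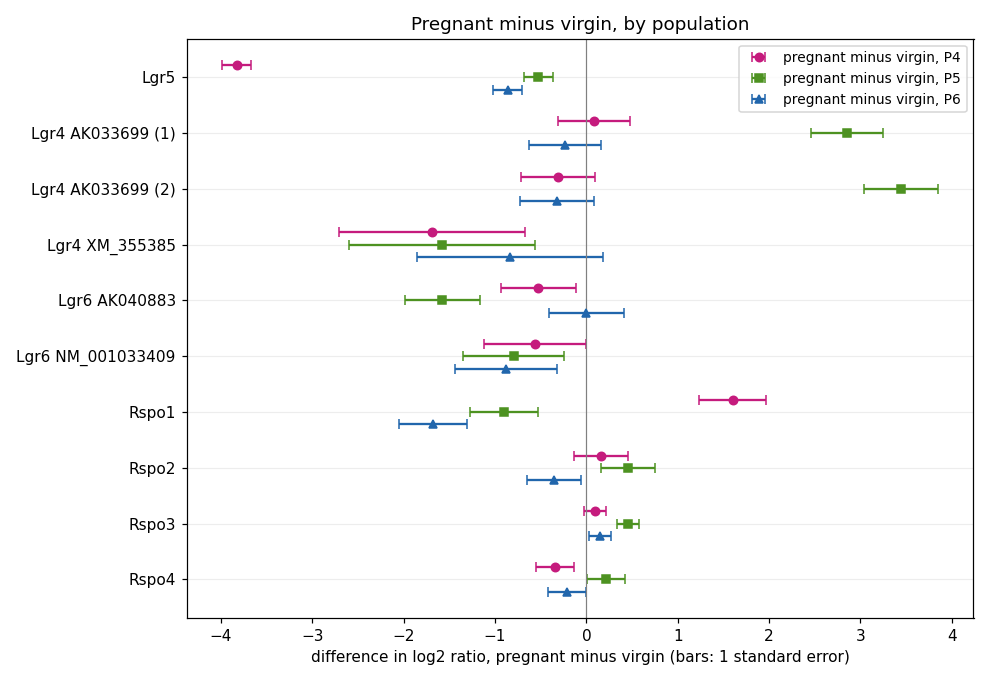
Difference in log2 ratio, pregnant minus virgin, for 10 of the 11 kept probes of the family in P4, P5 and P6, with bars of 1 standard error from the limma fit. Lgr5 stands at -3.83 in P4, the AK033699 probes of Lgr4 at 2.86 and 3.44 in P5, and Rspo1 on the positive side in P4 and on the negative side in P5 and P6.

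The GFP fractions of virgin transgenic mice give a second sort, with 1 array each and no test. Lgr5 read 4.33 in GFPhi, against 2.01 in GFPlo, a 5.01-fold difference, and 6.42% of all genes differed at least 2-fold between both arrays. The scanner's own log ratio put that difference at 1.37 in place of 2.32 on the log2 scale. The AK033699 probes of Lgr4 read 2.86 and 2.64 in GFPhi, against 0.70 and 1.00 in GFPlo. The AK040883 probe of Lgr6 read 1.14 in GFPhi, against -0.16 in GFPlo. Rspo1 went the other way, with 2.68 in GFPhi, against 4.22 in GFPlo.

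The remaining probes of the family differed by at most 0.37 between the fractions. The basal median was 5.80 in GFPhi, against 2.43 in GFPlo, and the fibroblast median 1.24, against 4.21. The part of these markers in the receptor and ligand differences was not tested.

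Among 14 genes of the receptor complex, including the Frizzled receptors and both ligases, 5 were higher and 1 lower in virgin P4 than in P5, beside 6.58% of all genes higher and 4.79% lower, with a median difference of 0.10, against 0.03 over all genes. In pregnant mice 7 of the 14 were higher in P4 than in P5 and none lower, beside 11.7% and 10.9% of all genes, with a median of 0.79, against -0.05. The Wnt receptor Fzd7 was higher in P4 by 2.37 in virgin mice (adjusted p = 0.019) and by 3.88 in pregnant mice (adjusted p = 0.00104), and Fzd1 by 2.18 and 2.66 (adjusted p = 6.42e-05 and 2.44e-05). The ligase gene Rnf43 was higher in P4 than in P6 by 3.46 in virgin mice (adjusted p = 0.00138) and by 4.48 in pregnant mice (adjusted p = 0.000293). Relative to P6, 4 of the 14 were higher and 2 lower in P4 of either condition, beside 4.9% higher and 5.5% lower of all genes in virgin and 6.2% and 5.88% in pregnant mice, with medians of 0.02 in virgin and 0.10 in pregnant mice, against 0.03 and -0.00 over all genes. Fzd1 was among the lower ones there, by -1.83 and -2.63. P5 had 2 higher and 2 lower than P6 in virgin mice, beside 7.32% and 8.83% of all genes, and 1 higher and 4 lower in pregnant mice, beside 13.7% and 13.2%.

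In pregnancy, P5 had 1 of the 14 higher and 3 lower, beside 10.7% and 10.8% of all genes, with a median of -0.46, against 0.04. Fzd10 fell most in it, by 4.11 on the log2 scale (adjusted p = 0.000289), to -0.06 and 0.11 in pregnant P5, against 4.60 and 3.68 in virgin P5. None of the 14 passed for pregnancy in P6, where 0.0465% of all genes were higher and 0.14% lower. In the pregnancy effect of P6 minus that of P5, 3 were higher and none lower, beside 3.52% and 3.8% of all genes.

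Of 13 genes raised by Wnt signalling in many tissues, which include both ligases again, 6 were higher in virgin P4 than in P5 and none lower, beside 6.58% and 4.79% of all genes, with a median of 1.11, against 0.03 over all genes. In pregnant mice 4 were higher and none lower, beside 11.7% and 10.9%, with a median of 0.33, against -0.05. Nkd1, a feedback inhibitor of the pathway, was higher in P4 by 5.27 in virgin mice (adjusted p = 0.000216) and by 4.03 in pregnant mice (adjusted p = 0.000543). Procr, described as a marker of mammary stem cells, was higher in P4 than in P5 by 2.48 and lower than in P6 by -1.51 in virgin mice. Against P6, 3 were higher and 2 lower in virgin P4, beside 4.9% and 5.5% of all genes, and 2 higher and 2 lower in pregnant P4, beside 6.2% and 5.88%. P5 had 2 higher and 5 lower than P6 in virgin mice, beside 7.32% and 8.83%, and 2 higher and 4 lower in pregnant mice, beside 13.7% and 13.2%. For pregnancy 1 of the 13 passed in P5 (Apcdd1, -1.24, adjusted p = 0.00695), beside 21.5% of all genes, and none in P6, beside 0.186%. The median pregnancy difference of the list was -0.34 in P5 and -0.33 in P6, against 0.04 and -0.01 over all genes. In P4, with no test, it was -0.75, against -0.03.

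Wnt4, the ligand tied to R-spondin 1 in this gland, was read beside Rspo1. It read 0.74 and 0.81 in pregnant P4, against -0.63 and -0.96 in virgin P4, and -1.94 and -1.32 in pregnant P5, against 1.77 and 2.20 in virgin P5. As for Rspo1, pregnant P4 was above virgin P4 and pregnant P5 below virgin P5, without overlap, a separation not counted over all genes. The Rspo1 difference in P5 did not pass (limma, adjusted p = 0.124) and turned to 0.10 with slide as a block. Wnt4 fell in P5 in pregnancy by 3.62 on the log2 scale (adjusted p = 0.000143), and it was lower in P4 than in P5 by -2.78 in virgin mice but higher by 2.41 in pregnant mice (adjusted p = 0.000663 and 0.000864). Ndp, another ligand of the Frizzled system, was higher in virgin P4 than in P5 by 2.08 (adjusted p = 0.00386). It read 0.95 and 0.80 in pregnant P4, against 2.08 and 3.07 in virgin P4. Tnfsf11 was not among the genes tested.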

How the data were processed

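RNA of 14 sorted samples was read on Agilent 2-colour arrays, quantified with Agilent Feature Extraction 9.5.3.1 per the submitters' processing notes. Per the file headers, the scanner files hold mean spot and local background intensities, flags without a unit, and the scanner's log10 ratio of Cy5 over Cy3. The deposited series table holds log2 ratios that match it (r from 0.990 to 1.000, slope near 1.00) and served as an alternative. Here, in R 4.3.3 with limma 3.58.1, flagged local backgrounds were replaced by the array's median (chosen after seeing the data), background was corrected by normexp (offset 50), and ratios were normalised by loess. Control and outlier spots were left out, spots of a probe averaged, and 34805 probes kept, those flagged well above background in Cy5 throughout at least 1 of 6 replicated groups. The brightest probe stood for a gene, and a second fit used all kept probes. Both used lmFit and eBayes on the 12 wild-type arrays with 1 mean per group, and adjusted p-values by Benjamini-Hochberg over all genes or probes, called under 0.05. Signal and the number of arrays limit precision: the median Cy5 intensity per array was 70.9 to 196.

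Replicate numbers come from the labels. Deviations of same-numbered arrays correlated at 0.295 to 0.687 within a condition and at -0.210 to 0.153 across conditions, so the number paired arrays within a condition, where it coincides with the scan. Nothing states that replicates were separate animals, so p-values reflect only sample-to-sample spread and this may be technical. The named genes are all members, list genes with at most 4 examples a comparison, and the 3 (Lgr5: 5) genes most correlated with each member, of which 1 is not reported here. Members and lists were chosen with earlier results of these data known. Alternatives were other scalings, offsets, filters, blocks, and leaving out arrays or scan 3.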

Additional observations from a re-analysis of the deposited data

Results flagged for a closer look

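Lgr4 was marked because its response to pregnancy differed between P6 and P5 on both AK033699 probes, by a test of the difference itself. The pregnancy effect in P6 minus that in P5 was -3.09 (limma, adjusted p = 0.0154) on A_52_P276727 and -3.77 (adjusted p = 0.00789) on A_51_P442746. Over the alternatives the adjusted p ran from 0.00109 to 0.366 for the first and from 0.000522 to 0.0344 for the second. The first was not called with median centring (-2.46), without scan 3 (-3.20), with only the arrays compared or without pregnant P5 replicate 2 (-3.11, adjusted p = 0.0508). The XM_355385 probe gave 0.74 (adjusted p = 0.852), so the difference holds for 2 of the 3 kept probes.

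Rspo1 was marked because every pregnant array lay above every virgin array in P4 (1.6 as the difference of means) and below every virgin array in P5 (-0.90) and P6 (-1.68). Each group has only 2 arrays, and how many of all genes separate in this way was not counted. Neither the P5 nor the P6 difference passed (limma, adjusted p = 0.124 and 0.166). The P5 difference turned to 0.10 with slide as a block and the P6 difference to 0.23 with the backgrounds as given. The difference between populations was not tested for P4, since the family was chosen with that contrast.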

How the results depend on the processing

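No called difference of the family, and none of the Lgr5 and Rspo1 differences between pregnant and virgin P4, reversed its direction. Differences that had not passed did: for Rspo1, pregnancy in P5 was 0.10 with slide as a block and pregnancy in P6 was 0.23 with the backgrounds as given, and pregnant P4 minus P6 was -0.05 with slide as a block. For pregnancy in P6, the XM_355385 probe of Lgr4 turned to 0.28 with slide and 0.52 with scan as a block, the second AK033699 probe to 0.05 with scan, and the AK040883 probe of Lgr6 and Rspo4 to 0.76 and 0.09 with slide. The count of members called was sensitive, since few members lie past the threshold. Apart from the fit over all probes, the share of all genes called under each alternative was not counted. The counts below therefore have no background beside them and do not set the family apart. Testing all probes gave 1 member for virgin P4 minus P5, 3 for virgin P4 minus P6, 2 for virgin P5 minus P6, 2 each for the 3 pairs of populations in pregnant mice, and 1 for the pregnancy effect in P6 minus that in P5, because other probes of Lgr4 and Lgr6 then count. The scanner's log ratio, the series table and the offset of 16 each gave 2 for virgin P4 minus P6 and 2 for virgin P5 minus P6. Slide as a block gave 2, 3, 2 and 2 for virgin P4 minus P6, virgin P5 minus P6, pregnant P4 minus P5 and pregnant P5 minus P6, and 0 for pregnancy in P5. Scan as a block gave 2, 3 and 3 for the first 3 of these and 1 for pregnancy in P5. The replicate block, which pairs arrays of one number, gave the same 2, 3 and 3, with 4 for pregnancy in P5 and 2 in P6, and it changed no other count. With the backgrounds as given the count was 0 for pregnant P4 minus P5, pregnant P5 minus P6 and pregnancy in P5. For pregnancy in P5 it was also 0 with median centring, without scan 3, with only the arrays compared and in each fit without 1 P5 array (0 to 0), and 1 when Cy3 had to be above background too. The Lgr5 difference in P4 in pregnancy was -3.61 with median centring, -3.39 both by the scanner's ratio and by the series table, and -4.13 with an offset of 16. The cause was not tested, except that fits that leave arrays out have fewer of them. Median centring moved the median of all genes to 0.16 for pregnant P4 minus P6, and the scanner's ratio to -0.17 and 0.16 for pregnant P4 minus P5 and P5 minus P6. Spots near background, above all Lgr5 in pregnant mice and Rspo2 to Rspo4, limit what these arrays resolve.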
